A study of Mus musculus with 21 samples.

Results

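In all, 10 genes of antigen presentation by the major histocompatibility complex (MHC) were followed in mouse glomeruli: B2m, H2-K1, H2-D1, Tap1, Psmb8 and Psmb9 of the class I route, and Cd74, H2-Aa, H2-Ab1 and H2-Eb1 of the class II route. They were chosen by name, by matching the Ensembl identifiers of the deposited tables to mouse symbols, and are 10 of 35598 genes. All 10 were found, each under 1 identifier, and all 10 passed the filter on low counts, as did 13898 genes in all. Glomeruli, the filtering units of the kidney, were cut by laser microdissection from 10 µm frozen sections of 21 female mice aged 3 months. Libraries were made with a kit that reads the 3' end of polyadenylated transcripts (QuantSeq FWD). The study asked what Epac1, encoded by Rapgef3, does in podocytes, the epithelial cells of the glomerular filter, during glomerulonephritis.

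Both genotypes carried floxed Epac1 alleles (Epac1fl/fl). Mice with these alleles alone are called flox, and littermates that also carried NPHS2Cre, a Cre recombinase under the podocin promoter that acts in podocytes, are called cKO. Nephritis was induced with nephrotoxic serum (NTS) given intravenously on 2 consecutive days and was sampled on day 4 or day 11, and controls received PBS. The labels do not give the day on which PBS mice were sampled. Among flox mice there were 3 libraries with PBS, 3 from day 4 and 4 from day 11, and among cKO mice 3 with PBS, 4 from day 4 and 4 from day 11. The deletion is limited to podocytes, whereas each library held every cell of the cut glomeruli, so more cells of a type and more RNA per cell cannot be told apart.

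MHC class I molecules show peptides from inside the cell to cytotoxic T cells, and nearly all nucleated cells carry them. The immunoproteasome cuts proteins into peptides, the TAP transporter carries these into the endoplasmic reticulum, and there they are loaded on a heavy chain paired with beta-2 microglobulin. MHC class II molecules show peptides from endocytosed material to helper T cells, are carried mainly by dendritic cells, macrophages and B cells, and depend on the invariant chain for their assembly; interferon gamma induces both routes in many cell types, including cells of the glomerulus.

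In GRCm38 coordinates (GENCODE M21), 8 of the 10 genes lie on chromosome 17, in the MHC region. H2-K1 spans chr17:33996017-34000347 on the minus strand and H2-D1 spans chr17:35262730-35267499 on the plus strand. Between them lie Psmb9 (chr17:34181987-34187764, minus), Tap1 (chr17:34187553-34197225, plus), Psmb8 (chr17:34197721-34201454, plus), H2-Ab1 (chr17:34257689-34269419, plus), H2-Aa (chr17:34282744-34287823, minus) and H2-Eb1 (chr17:34305867-34316674, plus). Tap1 and Psmb9 are arranged head to head and their gene models overlap by 212 bp. B2m is on chromosome 2 (chr2:122147686-122153083, plus). All 10 genes are annotated as protein coding.

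Promoter stretches are shown for 6 genes because class I and class II genes are known to share short upstream motifs. RefSeq windows (GRCm38.p6) of 300 bases, from 250 before to 50 after the start, were matched for 8 of the 10 genes, all but H2-Ab1 and Cd74. Sequences are 5' to 3' on the gene's strand, with motif matches in capitals, apart from some copies of a short core named below. The motifs were chosen after the promoter sequences had been seen, and those of 10 or more letters were read from the H2-K1 and B2m windows themselves.
H2-K1 (chr17:34000322-34000468, minus): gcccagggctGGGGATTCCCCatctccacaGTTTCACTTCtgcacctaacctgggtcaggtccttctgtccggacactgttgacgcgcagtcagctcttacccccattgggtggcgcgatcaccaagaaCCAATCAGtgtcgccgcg
H2-D1 (chr17:35262913-35263058, plus): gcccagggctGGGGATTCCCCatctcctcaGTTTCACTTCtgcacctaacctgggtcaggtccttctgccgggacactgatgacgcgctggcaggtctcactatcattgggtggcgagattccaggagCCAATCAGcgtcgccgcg
B2m (chr2:122147538-122147648, plus): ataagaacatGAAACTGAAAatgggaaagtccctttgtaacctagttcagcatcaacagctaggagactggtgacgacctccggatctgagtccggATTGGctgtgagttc
Tap1 (chr17:34187309-34187366, plus): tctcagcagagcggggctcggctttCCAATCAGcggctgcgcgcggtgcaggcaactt
H2-Aa (chr17:34287852-34287912, minus): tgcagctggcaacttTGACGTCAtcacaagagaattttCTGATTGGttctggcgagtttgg
H2-Eb1 (chr17:34305770-34305847, plus): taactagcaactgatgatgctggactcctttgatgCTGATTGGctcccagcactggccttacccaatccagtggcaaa

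H2-K1 and H2-D1 shared GGGGATTCCCC, a kappa B site, found on either strand in 0.0304% of 32851 promoter windows, and GAAGTGAAAC, an interferon response element, found in 0.140%. CTGATTGG, a form of the Y box bound by NF-Y, was matched in H2-K1, H2-D1, Tap1, Psmb9, H2-Aa and H2-Eb1 and in 4.10% of windows. Its core ATTGG, which overlaps it and is found in 37.4% of windows, was also in B2m, the gene in which it is capitalised. Further copies of the core outside CTGATTGG, in the H2-K1, H2-D1 and H2-Eb1 stretches, are left in lower case. B2m held GAAACTGAAA, a stretch with the letters of an interferon response element (0.231% of windows), Psmb8 the gamma-activated consensus TTCNNNGAA (8.30%) and H2-Aa the cyclic AMP response element TGACGTCA (1.79%). The Tap1 and Psmb9 windows share 275 bp, so the Y box of this pair is 1 stretch of DNA, and the printed Tap1 stretch lies inside the Psmb9 gene model. The H2-D1 stretch lies upstream of the RefSeq start and inside the longer GENCODE gene model. The H2-K1 stretch runs from -121 to 25 around the start, and its Y box match lies after the start. These matches describe letters in a window and no binding was measured.

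Libraries held 4550550 to 24295712 estimated reads (median 19470098), with 7871 to 13004 genes at 1 read or more, and the ribosomal transcript CT010467.1 took 14.93% to 39.52% of reads. All 8 podocyte markers were detected in every group, with summed levels of 3059 to 7450.5 CPM (counts scaled to a common library total) per library. Proximal tubule markers summed to 496 to 6285 CPM, so tubule RNA was present in every library. Rapgef3 was at 270.2 ± 60.5 CPM (SD, n = 3) in flox PBS and 121 ± 50.2 CPM (n = 3) in cKO PBS, at 191 ± 58.0 CPM (n = 3) and 119.9 ± 38.8 CPM (n = 4) on day 4, and at 205 ± 100.7 CPM (n = 4) and 176.9 ± 28.6 CPM (n = 4) on day 11. The cKO libraries were all below flox with PBS (log2 fold change -1.16) and overlapped with flox on day 4 (-0.67) and day 11 (-0.21). None of these passed edgeR's test, which called 0 of 13898 genes in each. Averaged over the stages Rapgef3 was at -0.68 in cKO (95% interval -1.19 to -0.18, unadjusted p = 0.0098, adjusted p = 0.55 by edgeR). As 3' tags may lie outside the deleted part and other glomerular cells keep the gene, these values do not check the deletion. The third library of cKO day 4 had the fewest detected genes and the third library of cKO day 11 the fewest reads, and fits were repeated without both.

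None of the 10 genes passed edgeR's test in any of 13 comparisons, and limma voom called 0 as well. Over all 13898 genes tested, edgeR called only 0 to 17 per comparison and limma voom 0 to 80. DESeq2 called 1 of the 10, H2-Aa, in 2 of the 13, both of day 4 against PBS. Over all genes it called 525 to 1305 per comparison. B2m, the light chain of every class I molecule, was at 173, 160.7 and 132 CPM in flox PBS and 131, 185 and 184 CPM in cKO PBS. On day 4 it was at 168.8, 212 and 436 CPM in flox and 259, 143, 132 and 302 CPM in cKO. On day 11 it was at 307, 343, 164 and 341 CPM in flox and 236, 158, 96.5 and 152.9 CPM in cKO. Flox day 11 had the highest group mean (289 ± 84.5 CPM, SD, n = 4) and flox PBS the lowest (156 ± 20.9 CPM, n = 3), and 3 of the 4 flox day 11 libraries lay above all flox PBS libraries. In cKO the day 11 mean was 160.6 ± 57.2 CPM (n = 4) against 167 ± 30.7 CPM (n = 3) with PBS, and the libraries overlapped.

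H2-D1, a classical class I heavy chain, was at 564, 526 and 246 CPM in flox PBS and 318, 357 and 256 CPM in cKO PBS. Its day 4 levels were 573, 553 and 876 CPM in flox and 633, 450.2, 280.0 and 815 CPM in cKO. Its day 11 levels were 728, 958, 382 and 409 CPM in flox and 527, 371, 367 and 301 CPM in cKO. The group means ran from 310.0 ± 51.0 CPM (SD, n = 3) in cKO PBS to 667 ± 181 CPM (n = 3) in flox day 4, and at each stage the cKO mean was below the flox mean with overlapping libraries. H2-K1, the other classical heavy chain in the set, had a larger coefficient of variation than H2-D1 in 5 of 6 groups, with 46.0, 339 and 134 CPM in flox PBS and 87.5, 203 and 196 CPM in cKO PBS. With nephritis it was at 182.24, 203.79 and 389 CPM in flox and 376, 156, 359.99 and 502 CPM in cKO on day 4. By day 11 it was at 136, 244, 186 and 562 CPM in flox and 445, 116, 164 and 58.1 CPM in cKO. Single libraries of one group differed by several fold, and every pair of groups next to each other in mean overlapped. Its means ran from 162 ± 64.7 CPM (n = 3) in cKO PBS to 349 ± 143 CPM (n = 4) in cKO day 4.

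Reads of these heavy chains can be shared between genes. Of the 31-base words in the last 300 bases of the transcript, 37.0% for H2-D1 and 10.4% for H2-K1 also occurred in transcripts of other genes, against 0 for the other 8 genes. For H2-K1 these were H2-D1 and H2-K2, and for H2-D1 they were spread over 670 genes, led by Kcnk4 at 20.7%. How reads that fit several genes were counted is not given in the sources used here, so the H2-K1 and H2-D1 levels are uncertain to that extent.

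**Figure D1:**
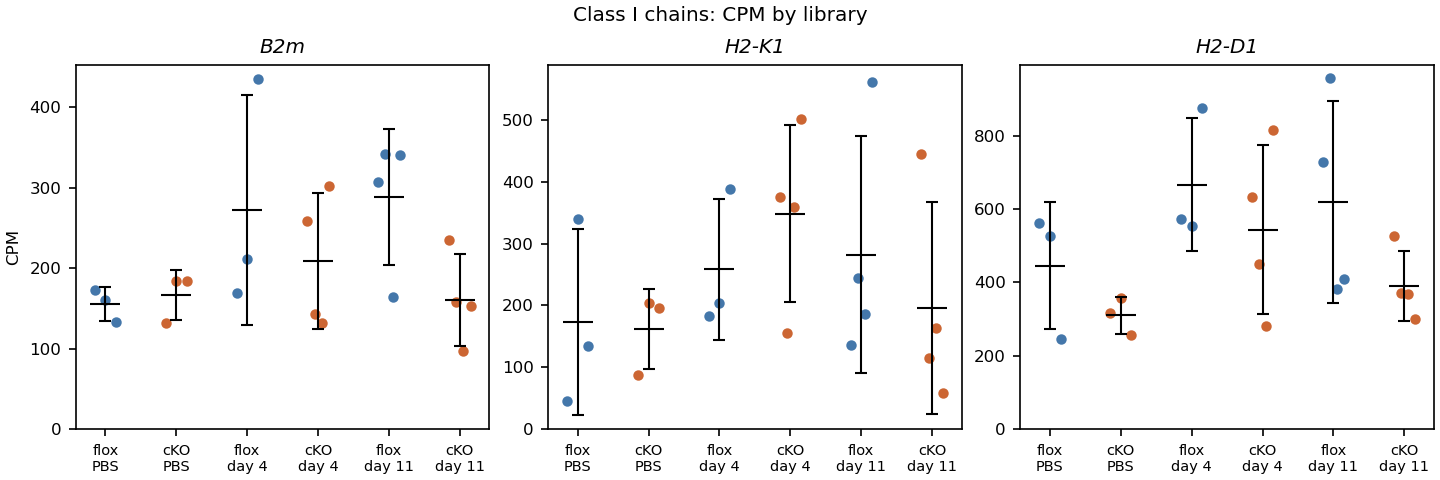
CPM (vertical axis, linear) of B2m, H2-K1 and H2-D1 in each library (points) by group, with the group mean and SD (black). For B2m flox lies at 164 to 343 CPM on day 11 and cKO at 96.5 to 236 CPM.

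Tap1, a subunit of the peptide transporter, and Psmb8 and Psmb9, catalytic subunits of the immunoproteasome, supply the peptides that class I molecules carry. Tap1 was at 39.7, 131 and 4.06 CPM in flox PBS and 0.0522, 33.1 and 48.7 CPM in cKO PBS. It was at 9.68, 18.1 and 14.8 CPM in flox day 4 and 14.8, 45.3, 8.07 and 77.8 CPM in cKO day 4. Day 11 levels were 0.650, 55.0, 42.5 and 13.8 CPM in flox and 35.4, 20.2, 22.4 and 0.233 CPM in cKO. The 3 flox PBS libraries alone spanned 4.06 to 131 CPM, and over all 21 libraries the coefficient of variation was 102% for Tap1, 93.4% for Psmb9 and 55.0% for Psmb8. Among the other 7 genes it ran from 33.9% for H2-Aa to 63.6% for Cd74, so Psmb8 lay within their range.

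Psmb8 was at 19.5, 16.3 and 11.8 CPM in flox PBS and 46.4, 33.2 and 20.1 CPM in cKO PBS. Day 4 levels were 2.16, 43.3 and 33.7 CPM in flox and 5.03, 21.96, 26.7 and 37.7 CPM in cKO. On day 11 it was at 23.9, 26.0, 23.1 and 22.6 CPM in flox and 0.0561, 27.8, 11.6 and 19.0 CPM in cKO. Every flox day 11 library lay above every flox PBS library, and every cKO PBS library lay above every flox PBS library, yet neither difference passed the test.

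Psmb9 was at 38.6, 18.1 and 20.4 CPM in flox PBS and 0.0522, 44.6 and 24.5 CPM in cKO PBS. On day 4 it was at 6.56, 4.43 and 28.0 CPM in flox and 1.49, 2.38, 0.0769 and 19.7 CPM in cKO. Its day 11 levels were 12.6, 27.7, 0.333 and 5.28 CPM in flox and 27.1, 11.2, 0.224 and 8.87 CPM in cKO. The means were highest with PBS, at 25.7 ± 11.2 CPM (SD, n = 3) for flox and 23.05 ± 22.3 CPM (n = 3) for cKO, and lowest in cKO day 4 (5.90 ± 9.22 CPM, n = 4), and all groups overlapped with their neighbours in the order. The lowest values rest on very few reads: 1 read each for Tap1 and Psmb9 in the first cKO PBS library, for Psmb9 in the third library of cKO day 4 and the third library of cKO day 11, and for Psmb8 in the first cKO day 11 library, and 2 reads for Tap1 in the last of the 4 cKO day 11 libraries.

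**Figure D2:**
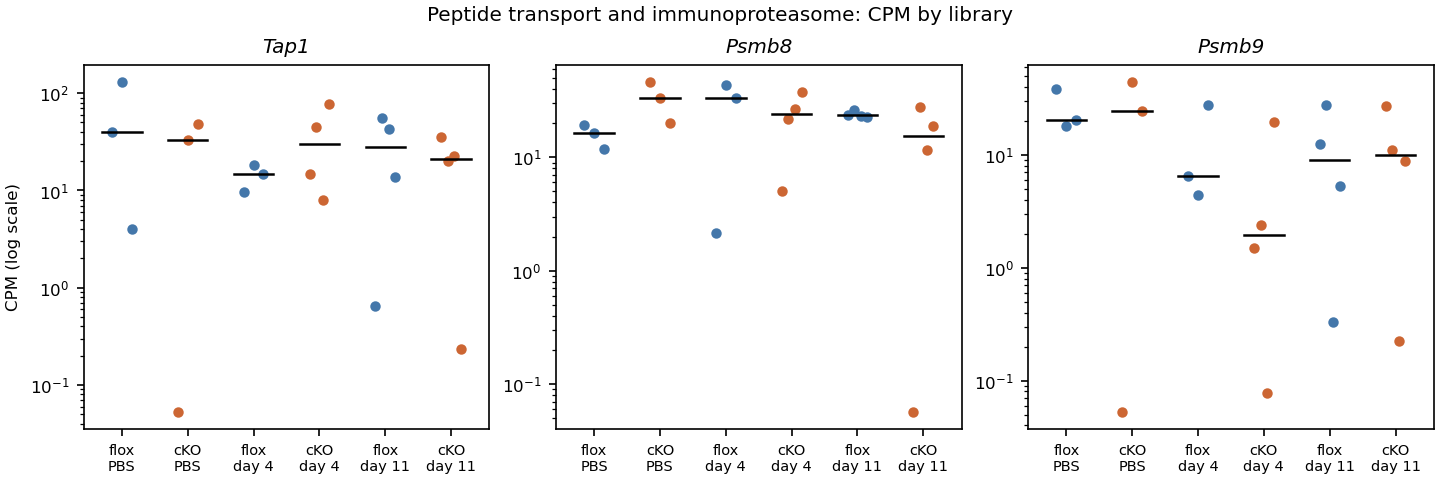
CPM (vertical axis, log scale) of Tap1, Psmb8 and Psmb9 in each library (points) by group, with the group median (black line). Several libraries lie below 1 CPM, among them the first cKO PBS library at 0.0522 CPM for both Tap1 and Psmb9.

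Cd74, the invariant chain that occupies the class II groove during assembly, was at 324, 74.5 and 141 CPM in flox PBS and 105, 126 and 77.7 CPM in cKO PBS. Its day 4 levels were 265, 319.8 and 124 CPM in flox and 156, 413, 143 and 308 CPM in cKO. Day 11 levels were 230.3, 240.0, 283 and 75.0 CPM in flox and 103, 591, 91.1 and 418 CPM in cKO. All 4 cKO day 4 libraries lay above all 3 cKO PBS libraries. On day 11 the cKO libraries split, with 2 at 418 and 591 CPM and 2 within the range of cKO PBS, and the mean was 301 ± 245 CPM (SD, n = 4). The gene is on chromosome 18.

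H2-Aa, the alpha chain of the I-A class II molecule, was the steadiest of the set. It was at 149.6, 176.6 and 130.5 CPM in flox PBS and 126, 126 and 175 CPM in cKO PBS. Day 4 levels were 198.97, 154 and 327 CPM in flox and 308, 264, 305 and 211 CPM in cKO. On day 11 it was at 191, 207, 122 and 112 CPM in flox and 231, 306, 167.7 and 213 CPM in cKO. Of the 7 day 4 libraries, 6 lay above all 6 PBS libraries, and the 4 cKO day 4 libraries lay above all 3 cKO PBS libraries.

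H2-Ab1, the beta chain of the same I-A molecule, did not follow H2-Aa in every group. It was at 245, 169.5 and 147 CPM in flox PBS and 134, 100.8 and 140.1 CPM in cKO PBS, so that all cKO libraries were below all flox libraries. On day 4 it was at 114, 78.3 and 206 CPM in flox and 187, 55.9, 465 and 174 CPM in cKO. Its day 11 levels were 95.9, 182.04, 228 and 199.99 CPM in flox and 92.5, 276, 160.98 and 305 CPM in cKO. The 465 CPM of the third cKO day 4 library was the highest value of the series for this gene.

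H2-Eb1, the beta chain of the I-E molecule, was at 187, 289 and 153.4 CPM in flox PBS and 159, 154 and 194 CPM in cKO PBS. Its day 4 levels were 355, 208 and 183 CPM in flox and 252, 317, 361 and 192 CPM in cKO. Day 11 levels were 211, 151, 459 and 345 CPM in flox and 163, 344, 126 and 397 CPM in cKO. Cd74, H2-Aa, H2-Ab1 and H2-Eb1 each had their lowest group mean in cKO PBS. For each of the 10 genes, neighbours in the order of group means overlapped, so no step in that order exceeded the spread between libraries.

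**Figure D3:**
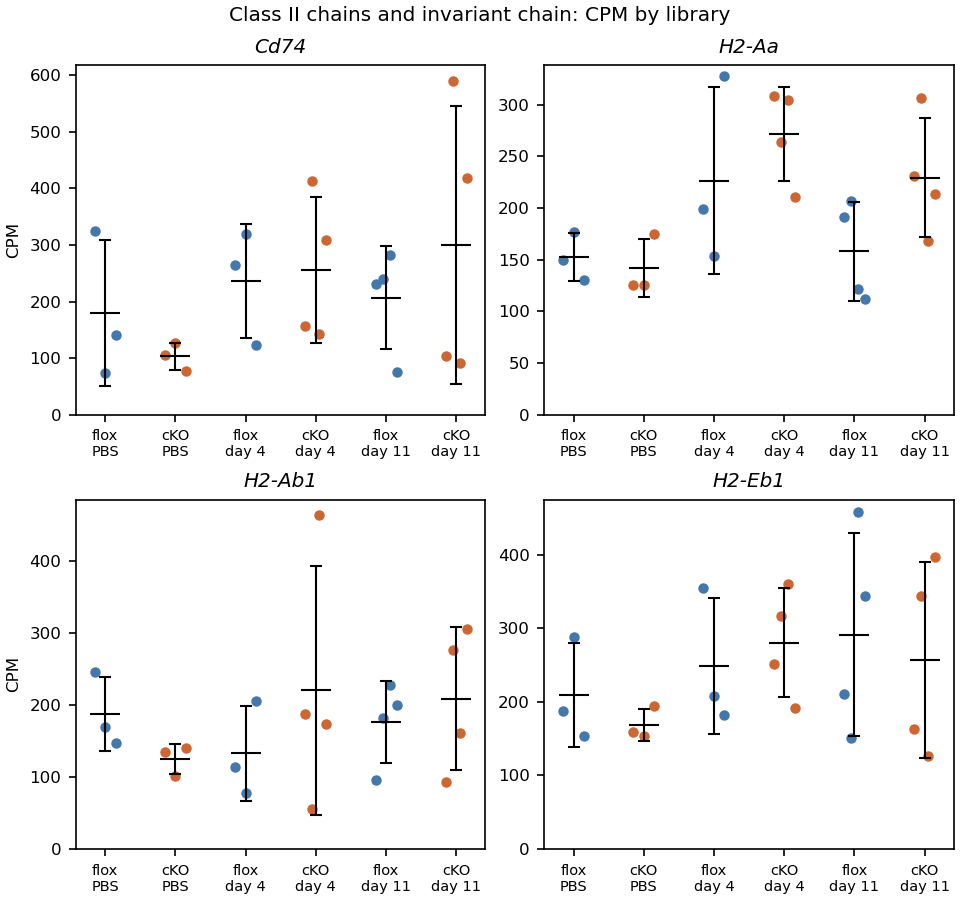
CPM (vertical axis, linear) of Cd74, H2-Aa, H2-Ab1 and H2-Eb1 in each library (points) by group, with the group mean and SD (black). The cKO day 4 libraries of H2-Aa lie at 211 to 308 CPM, above the cKO PBS libraries at 126 to 175 CPM.

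Averaged over both genotypes, 8 of the 10 genes had a log2 fold change above 0 on day 4 against PBS, where 50.5% of all genes did, with a median of 0.53 against 0.01 over all genes tested. H2-Aa was 0.75 ± 0.27 higher (log2, SE; 95% interval 0.20 to 1.31; 7 against 6 libraries; unadjusted p = 0.0094, adjusted p = 0.38 by edgeR's quasi-likelihood test). H2-D1 was 0.70 ± 0.26 higher (0.17 to 1.23; adjusted p = 0.39 by edgeR). Cd74 stood at 0.85 ± 0.42, H2-K1 at 0.84 ± 0.46, B2m at 0.57 ± 0.30, H2-Eb1 at 0.49 ± 0.30 and H2-Ab1 at 0.16 ± 0.38. Psmb8 stood at 0.10 ± 1.15, Tap1 at -0.81 ± 1.17 and Psmb9 at -1.47 ± 1.52, intervals wide enough to hold a change of several fold either way.

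By edgeR's adjusted p, 0 of the 10 genes were called on day 4, against 0.0216% of all genes (3 genes). At an unadjusted p under 0.05 there were 2 of 10, both higher, against 9.28% of all genes in either direction and 5.36% higher. DESeq2 called 1 of the 10, H2-Aa, at a log2 fold change of 0.77 (adjusted p = 0.022), while calling 1305 of 13978 genes, and limma voom called 0. The direction of Psmb8 and H2-Ab1 on day 4 turned under several alternatives.

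On day 11 against PBS, 7 of 10 genes were above 0 against 52.9% of all genes, with a median of 0.39 against 0.07. In the same comparison the median of distal nephron markers stood at -1.30, of erythrocyte markers at -1.70, of podocyte markers at -0.50 and of parietal epithelium markers at 1.43. Medians of immune cell markers were 0.79 for macrophage, 0.97 for dendritic cell, 1.44 for B cell, -1.02 for T and NK cell and -0.43 for neutrophil markers. Cd74 stood at 0.87 ± 0.41 (log2, SE; 95% interval 0.03 to 1.71; 8 against 6 libraries; unadjusted p = 0.042, adjusted p = 0.52 by edgeR), the 1 gene of the 10 at an unadjusted p under 0.05, where 9.12% of all genes were. H2-Eb1 stood at 0.54 ± 0.30, H2-K1 at 0.49 ± 0.44, B2m at 0.42 ± 0.29, H2-D1 at 0.41 ± 0.25, H2-Aa at 0.37 ± 0.26 and H2-Ab1 at 0.33 ± 0.36. Psmb8 stood at -0.30 ± 1.11, Tap1 at -0.77 ± 1.12 and Psmb9 at -1.06 ± 1.45. None of the 10 was called by edgeR, where 0.122% of all genes were (17 genes), nor by DESeq2, which called 1201 of 14316 genes, or limma voom, which called 79 of 13898.

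Day 11 and day 4 share the PBS controls. Compared directly, day 11 against day 4, averaged over genotypes, gave 5 of 10 genes above 0, where 52.9% of all genes were, and a median of -0.06 against 0.07. No gene of the 10 was at an unadjusted p under 0.05, where 8.57% of all genes were, and 0 of all genes were called by edgeR. Their fold changes ran from -0.39 ± 1.07 for Psmb8 to 0.41 ± 1.41 for Psmb9.

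**Figure D4:**
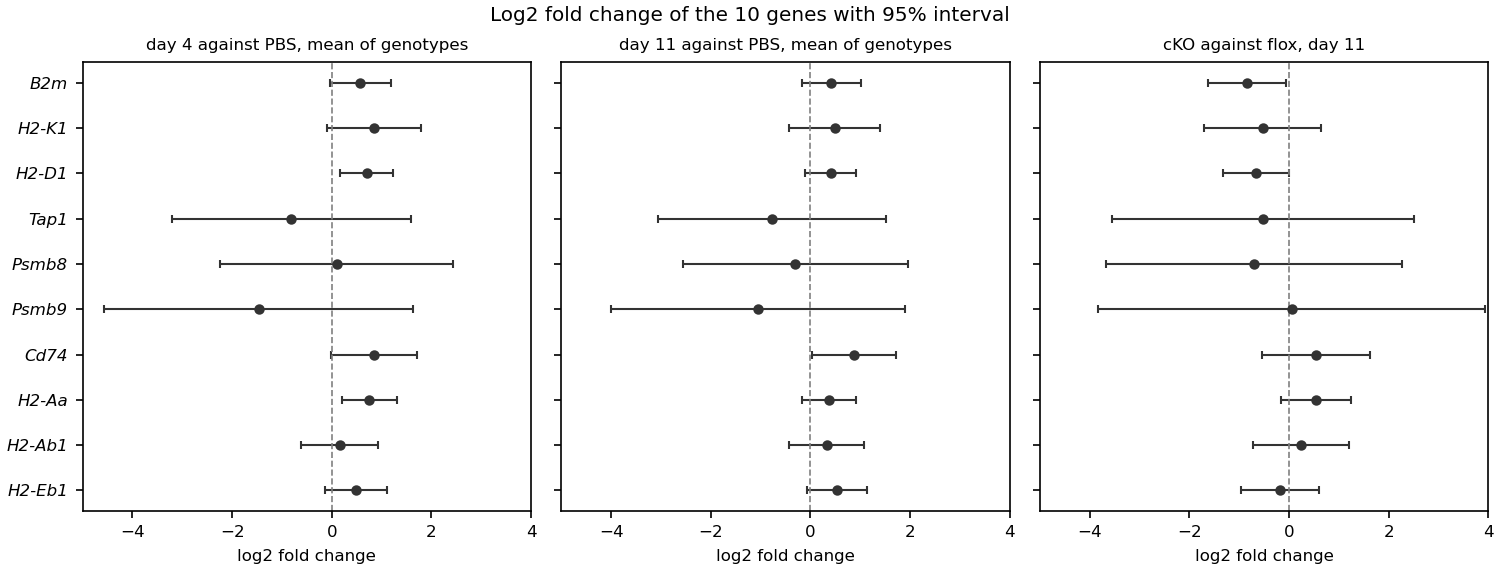
Log2 fold change (horizontal axis) of the 10 genes with 95% intervals from edgeR, for day 4 and day 11 against PBS averaged over genotypes and for cKO against flox on day 11. Intervals of Tap1, Psmb8 and Psmb9 span 0 widely, and those of H2-D1 and H2-Aa on day 4, of Cd74 on day 11 and of B2m between genotypes do not reach 0.

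Within genotype, flox day 4 against flox PBS had 7 of 10 genes above 0 (52.4% of all genes) and 0 at an unadjusted p under 0.05 (7.93% of all genes). B2m stood highest of the chains at 0.81 ± 0.44, and H2-Ab1 at -0.50 ± 0.55. On day 11 in flox, B2m stood at 0.89 ± 0.42 (95% interval 0.05 to 1.74; 4 against 3 libraries; adjusted p = 0.58 by edgeR) and was the 1 gene of the 10 at an unadjusted p under 0.05, where 8.25% of all genes were. Of the 10, 7 were above 0, against 53.2% of all genes. Psmb8 was the 1 gene whose flox day 11 libraries were all above flox PBS, as they were in 3.86% of all genes. Of the class II genes in flox day 11, H2-Eb1 stood at 0.47 ± 0.42, Cd74 at 0.20 ± 0.57, H2-Aa at 0.05 ± 0.37 and H2-Ab1 at -0.09 ± 0.51.

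In cKO, day 4 against PBS had 8 of 10 genes above 0, against 45.4% of all genes, with a median of 0.77 against -0.09. Cd74 stood at 1.31 ± 0.59 (95% interval 0.10 to 2.52), H2-Aa at 0.94 ± 0.38 (0.17 to 1.71) and H2-D1 at 0.81 ± 0.36 (0.09 to 1.54), each with 4 against 3 libraries and an adjusted p of 0.60 by edgeR. Those 3 of 10 were at an unadjusted p under 0.05, where 8.16% of all genes were in either direction and 2.21% were higher. Cd74 and H2-Aa were also without overlap between libraries, as 1.37% of all genes were in that direction. DESeq2 called H2-Aa here, at 1.02 (adjusted p = 0.042), among 841 genes called. On day 11 in cKO, 6 of 10 genes were above 0 (47.5% of all genes) and 1 of 10 was at an unadjusted p under 0.05 (6.02% of all genes). Cd74 stood at 1.55 ± 0.60 (0.33 to 2.76; adjusted p = 0.81 by edgeR), and at 0.99 without the second cKO day 11 library. The other class II genes stood at 0.74 ± 0.52 (H2-Ab1), 0.69 ± 0.37 (H2-Aa) and 0.61 ± 0.42 (H2-Eb1). B2m stood at -0.05 ± 0.41 and H2-D1 at 0.34 ± 0.35. By edgeR, 0.0504% of all genes were called in cKO on day 11 and 0 in the other 3 comparisons within a genotype. In these 4 comparisons DESeq2 called 672 to 1176 genes and limma voom 23 to 80.

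Between genotypes on day 11, B2m and H2-D1 lay below 0 and H2-Aa above it, with each library left out in turn as well. Of the 6 class I genes 1 was above 0, with a median of -0.59, and of the 4 class II genes 3 were, with a median of 0.39, beside 48.1% and -0.02 over all genes. These counts depend on single libraries and on the tool: H2-K1 stood at 0.05 without the fourth flox day 11 library, Tap1 at 0.04 without the second, H2-Eb1 at 0.10 without the third and Psmb9 at -0.78 without the first cKO day 11 library, and limma voom put H2-Ab1 at -0.03. B2m was lower in cKO by a log2 fold change of -0.85 ± 0.38 (95% interval -1.62 to -0.07; 4 against 4 libraries; unadjusted p = 0.033, adjusted p = 0.84 by edgeR), with 3 of 4 cKO libraries below all flox libraries. H2-D1 stood at -0.66 ± 0.33 (-1.33 to 0.00; adjusted p = 0.84 by edgeR) and H2-K1 at -0.53 ± 0.57. H2-Aa stood at 0.54 ± 0.34 with 3 of 4 cKO libraries above all flox libraries, Cd74 at 0.54 ± 0.53 (and at -0.02 without the second cKO day 11 library), H2-Ab1 at 0.24 ± 0.47 and H2-Eb1 at -0.18 ± 0.38. B2m was the 1 gene of the 10 at an unadjusted p under 0.05, where 5.86% of all genes were, and edgeR called 0 of all genes.

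With PBS, 2 of 10 genes were above 0 between genotypes (52.6% of all genes) and 0 of 10 were at an unadjusted p under 0.05 (6.02% of all genes). The cKO libraries lay all above flox for Psmb8, at a log2 fold change of 1.07 ± 1.70, as they did in 7.27% of all genes, and all below flox for H2-Ab1, at -0.58 ± 0.55, as in 2.96% of all genes. On day 4, 6 of 10 were above 0 (45.8% of all genes), 0 of 10 were at an unadjusted p under 0.05 (7.42% of all genes), and the chains ran from -0.38 ± 0.40 for B2m to 0.73 ± 0.52 for H2-Ab1. Averaged over the 3 stages, H2-D1 was lower in cKO by -0.49 ± 0.20 (95% interval -0.90 to -0.08; 11 against 10 libraries; unadjusted p = 0.021, adjusted p = 0.61 by edgeR), the 1 gene of the 10 at an unadjusted p under 0.05, where 6.62% of all genes were and 0.00720% were called. B2m stood at -0.38 ± 0.23 and H2-Aa at 0.23 ± 0.21 in that average, and 3 of 10 genes were above 0 (50.7% of all genes).

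Whether nephritis acted differently by genotype was tested as an interaction, cKO minus flox. None of the 10 genes was called or at an unadjusted p under 0.05 at either stage, where 7.74% (day 4) and 6.94% (day 11) of all genes were. Of the 10, 7 were above 0 on day 4 and 6 on day 11, where 43.5% and 44.8% of all genes were. On day 4 the smallest p was that of H2-Ab1, at 1.31 ± 0.76 (log2, SE; adjusted p = 0.75 by edgeR). On day 11, Cd74 stood at 1.34 ± 0.81 and B2m at -0.95 ± 0.58 (adjusted p = 0.86 each by edgeR). The 4 class II genes were above 0 at both stages, with medians of 0.70 and 0.73 against -0.28 and -0.20 over all genes; the 2 stages share the PBS libraries, and all 4 genes had their lowest mean in cKO PBS. H2-Eb1 on day 11 turned to -0.06 with the number of detected genes as a covariate and to -0.17 without the second flox PBS library. In the wider list of class II chains, invariant chain and peptide exchange genes, which holds these 4, 4 of 9 tested genes were above 0 on day 4 (median -0.63) and 5 of 9 on day 11 (median 0.14).

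Markers of cells that carry class II were measured beside these values. Summed levels of 15 macrophage markers were 299 to 542 CPM in flox PBS, 262 to 360.1 CPM in cKO PBS, 313 to 400.5 CPM in flox day 4 and 129 to 703 CPM in cKO day 4. On day 11 they were 215 to 448 CPM in flox and 495 to 576 CPM in cKO, and these sums did not overlap between the genotypes. Of the 13 macrophage markers tested singly there, 10 were above 0 (48.1% of all genes) and edgeR called 0. At an unadjusted p under 0.05 there was 1, higher in cKO (5.86% of all genes in either direction). No single marker lay higher without overlap, as 171 of 13898 genes did. The 10 dendritic cell markers summed to 16.3 to 39.1 CPM in flox PBS, 38.9 to 85.3 CPM in cKO PBS, 66.6 to 122 CPM in flox day 4, 74.2 to 181.99 CPM in cKO day 4, 39.4 to 100.02 CPM in flox day 11 and 71.0 to 164 CPM in cKO day 11. All flox day 4 and flox day 11 libraries were above all flox PBS libraries in this sum. Of the 5 dendritic cell markers tested singly, 1 was higher without overlap on each day. Over all 13898 genes, 946 were so on day 4 and 537 on day 11. The flox values of Cd74, H2-Aa, H2-Ab1 and H2-Eb1 overlapped with PBS on both days, and a link to the marker sum was not tested.

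Most macrophage markers had reads, 9 to 12 of 15 in each library, and 1 to 4 of 15 were at 0 throughout a group. Dendritic cell markers were sparser, with 1 to 5 of 10 with reads in each library and 4 to 6 at 0 throughout a group. Flt3 was at 0 in every group except flox day 11, Cd163 in all groups except flox PBS, and Adgre1 in flox day 4 and cKO day 11. The 10 B cell markers summed to 0.0518 to 178 CPM per library. The 7 neutrophil markers summed to 0 to 96.9 CPM per library, and 3 of the 7, Ly6g, Csf3r and Mpo, were at 0 in all groups. On day 4 against PBS, averaged over genotypes, the median log2 fold change was 0.46 for 13 macrophage and 1.03 for 5 dendritic cell markers tested. It was 0.83 for 5 B cell, -0.06 for 7 T and NK cell and -1.90 for 4 neutrophil markers. The part of these cells in the class I and class II levels was not tested.

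Markers of kidney cells and erythrocytes were read in the same comparisons, and edgeR called none of them. On day 11 against PBS, 5 of 6 distal nephron markers, 4 of 8 podocyte markers, 3 of 5 erythrocyte markers and 2 of 12 proximal tubule markers (median log2 fold change -0.44) were lower at an unadjusted p under 0.05, as 2.94% of all genes were. All 6 parietal epithelium markers were above 0, 2 of them at that p, where 6.17% of all genes were higher. Of 9 glomerular endothelium markers, 2 were lower at that p (median -0.29), and of 7 mesangium markers 1 was higher (median -0.23). On day 4 against PBS the medians were 0.28 for distal nephron, -0.40 for podocyte, -1.01 for erythrocyte, 0.36 for proximal tubule and 0.54 for parietal epithelium markers. For glomerular endothelium markers the day 4 median was 0.09 and for mesangium markers -0.43. The part of these cells in the levels of the 10 genes was not tested.

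**Figure D5:**
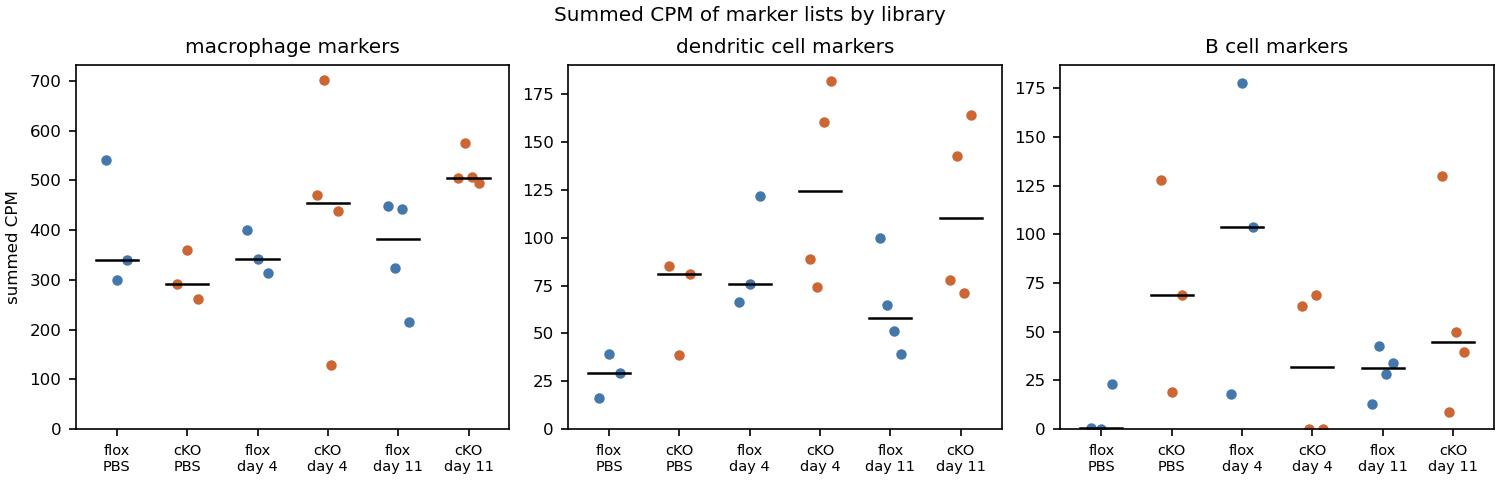
Summed CPM (vertical axis, linear, a separate scale in each panel) of the macrophage, dendritic cell and B cell markers in each library (points) by group, with the group median (black line). The macrophage sums of the cKO day 11 libraries lie at 495 to 576 CPM, above those of flox day 11 at 215 to 448 CPM. Of the 13 macrophage markers tested singly, 0 were without overlap between these groups.

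Other genes of the pathway were read from 9 lists of 75 genes outside the 10, of which 74 were matched and 64 tested. On day 11 against PBS, 0 of 64 were called by edgeR, 5 were higher and 2 lower at an unadjusted p under 0.05 (6.17% and 2.94% of all genes), and 29 of 64 were above 0. On day 4 these were 0 called, 4 higher and 2 lower (5.36% and 3.92% of all genes), and 34 of 64 above 0. Genes named here are the 3 of each list with the smallest p on day 11. Their fold changes are for day 11 against PBS averaged over both genotypes. The levels printed beside some of them cover only part of the 6 groups, so they do not show whether both genotypes changed alike.

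Of the class I heavy chains outside the 10, H2-Q7 stood at -1.16 ± 0.48 (log2, SE; adjusted p = 0.41 by edgeR) and H2-Q6 at -0.72 ± 0.55; these are near-identical copies whose reads could be split. H2-Q7 had means of 132 ± 38.0 CPM (SD, n = 3) in flox PBS, 178 ± 30.1 CPM (n = 3) in cKO PBS and 48.0 ± 51.5 CPM (n = 4) in cKO day 11. Of the loading genes, Calr, a chaperone of the heavy chain, stood at 0.51 ± 0.23 (adjusted p = 0.49 by edgeR), Tapbp, which bridges TAP and the heavy chain, at 0.26 ± 0.29, and Tap2, the partner of Tap1, at 1.72 ± 2.08. The remaining immunoproteasome subunit Psmb10 stood at -0.77 ± 0.80, and the proteasome activator genes Psme2 and Psme1 at 0.11 ± 0.63 and 0.01 ± 0.47. The subunits that the immunoproteasome replaces, Psmb6, Psmb5 and Psmb7, stood at -0.21 ± 0.38, -0.19 ± 0.52 and -0.09 ± 0.95.

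On the class II side, Ctss, the protease that trims the invariant chain, stood at 1.15 ± 0.55 on day 11 (adjusted p = 0.53 by edgeR), with means of 44.0 ± 15.7 CPM (SD, n = 3) in flox PBS and 86.0 ± 38.0 CPM (n = 4) in flox day 11. Ctsh and Ctsb, other lysosomal proteases, stood at -0.29 ± 0.34 and 0.27 ± 0.33. H2-DMa, which helps exchange peptides on class II, stood at 0.22 ± 1.45, and H2-Ea-ps at 1.26 ± 1.33. Of the regulators, Irf2 stood at -0.69 ± 0.38. Of the interferon gamma targets and receptor, Iigp1 stood at -1.17 ± 0.51 (adjusted p = 0.46 by edgeR), with 106 ± 76.5 CPM (n = 3) in flox PBS and 42.5 ± 17.1 CPM (n = 4) in flox day 11, and Ifngr2 at 2.43 ± 1.10 (adjusted p = 0.49 by edgeR), with 0.999 ± 1.11 CPM (n = 3) in flox PBS but 28.3 ± 15.04 CPM (n = 3) in cKO PBS. Among the named genes with reads in every group, DESeq2 called these 2, Iigp1 at -1.16 (adjusted p = 0.037) and Ifngr2 at 2.45 (adjusted p = 0.015), and gave Tap2 no adjusted p. Over all genes DESeq2 called 1201 of 14316 in this comparison. The named genes had been picked by their edgeR p in the same comparison, so these 2 calls are no separate support. Of the co-stimulatory genes, Icosl stood at -0.87 ± 1.72 and Cd274 at 0.48 ± 2.12.

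The remaining 6 named genes had a group with every library at 0, so no fold is given. Rfxank, a subunit of the class II regulator RFX, was at 0 in cKO PBS and at 22.3 ± 17.4 CPM (SD, n = 4) in flox day 11. Nlrc5, the class I transactivator, was at 0 in flox PBS and at 12.7 ± 10.5 CPM (n = 3) in cKO PBS. Socs1 was at 0 in both PBS groups and at most 10.4 CPM elsewhere. Cd40 and H2-M3 were at 0 in flox PBS, and H2-DMb2 was at 0 in flox PBS and in both day 4 groups.

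Across the 21 libraries, the median correlation was higher within class I and within class II than between the routes. Values are Spearman correlations of log2 CPM that share library and depth. B2m and H2-D1 had 0.74, the highest of the class I pairs, and B2m and H2-K1 0.60, while Psmb8 had -0.03 to 0.17 with the other class I genes. The median was 0.28 over 15 class I pairs, 0.24 over 6 class II pairs and -0.06 over 24 pairs of 1 gene from each, against 0.02 over all pairs of genes tested. Among 6178 other genes, those with the highest mean correlation with the 6 class I genes were Cryab (0.48), Dennd1a (0.47), Unc119b (0.47), Trp53inp2 (0.46), Ifi30 (0.46) and Ptpn9 (0.45). For the 4 class II genes they were Mapkapk2 (0.48), Gapdh (0.47), Tmem176b (0.45), Actn1 (0.44), Rps26 (0.44) and Ssbp4 (0.44).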

How the data were processed

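What was measured is the number of 3' end reads per gene in glomeruli of 21 mice, 1 library each. The authors deposited estimated counts for each library, with no normalization, in the NumReads column, per the file headers. The submitters' processing notes list FastQC, fastp, DRAGEN and Picard, and the mm10 build; no version, strand setting or rule for reads that match several genes could be read from the labels or headers. Identifiers were matched to GENCODE M21 for 35513 of 35598 genes (99.8%).

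After rounding, the estimated counts went into edgeR 4.0.16 (R 4.3.3). Genes were kept by filterByExpr at min.count 10. TMM factors ran from 0.751 to 1.12. Each of 6 groups had its own mean over all 21 libraries, with 15 residual degrees of freedom, a robust quasi-likelihood fit, Benjamini-Hochberg adjustment over 13898 genes and a threshold of 0.05. The common biological coefficient of variation was 1.66. CPM used TMM-adjusted totals, log2 CPM a prior count of 2. The SE came from the F statistic and intervals are 95%. Libraries held 4550550 to 24295712 reads, so that 1 read was worth 0.0522 CPM in the first cKO PBS library and 0.224 CPM in the third library of cKO day 11.

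There were 13 comparisons: nephritis against PBS, cKO against flox, day 11 against day 4, and interactions. Alternatives were DESeq2 1.42.0, limma 3.58.1 voom with quality weights, median-ratio size factors, other filters, only the compared groups, fewer genes, a proximal tubule or detected-gene covariate, a replicate block, and libraries left out. Scripts were tested on simulated data. The genes, lists and naming rules were chosen with earlier results of these data known. Named were the 10 genes in every comparison, in each pathway list the 3 tested genes with the smallest p on day 11, the 6 genes most like each route by mean Spearman correlation, and Rapgef3. Promoters came from RefSeq (GRCm38.p6). Plots used matplotlib 3.10.9 (Python 3.11.15).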

Additional observations from a re-analysis of the deposited data

Results flagged for a closer look

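In cKO day 4, 1 library stood apart from the other 3 for Psmb9, at 19.7 CPM against 1.49, 2.38 and 0.0769 CPM, with a gap to the next library that passed Dixon's 95% critical value. This was 1 of 30 groups of 4 libraries examined over the 10 genes. Chance alone marks about 1 in 20 groups where values follow a normal distribution, which was not checked. The gap was in CPM, and these libraries held 442 reads against 32, 46 and 1.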

How the results depend on the processing

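None of the 10 genes was called in 413 of 415 alternative fits by comparison. DESeq2 called 1 gene, H2-Aa, in each of the remaining 2, cKO day 4 against cKO PBS and day 4 against PBS, among 841 and 1305 genes called in all. Of 4150 log2 fold changes of the 10 genes under alternatives, 3978 kept their direction and their side of the threshold and 170 changed sign, 113 of them with 1 library left out. For pathway genes these were 628 of 670, with 40 changes of sign. Values that changed sign follow as log2 fold changes, and their causes were not tested. With DESeq2 and with median-ratio size factors, B2m was at 0.00 for cKO day 11 against PBS. With the number of detected genes as a covariate, values were B2m at -0.25 for cKO against flox with PBS, H2-Eb1 at -0.04 for cKO against flox on day 4, Psmb8 at -0.02 for cKO against flox over all stages. That covariate also put B2m at 0.09 and Tap1 at 0.39 for cKO day 11 against PBS, Psme1 at -0.00 for day 11 against PBS, Tap1 at -0.56 and Psmb9 at -0.17 for day 11 against day 4. That covariate also put Psmb8 at -0.01 for day 4 against PBS, H2-Ab1 at 0.13 for flox day 11 against PBS, H2-K1 at 0.02, H2-D1 at 0.15 and H2-Eb1 at -0.06 for the day 11 interaction. That covariate also put B2m at 0.12 and Psmb9 at 1.50 for the day 4 interaction. With limma voom and quality weights, values were H2-K1 at 0.34 for cKO against flox with PBS, Psmb9 at -0.55 and H2-Ab1 at -0.03 for cKO against flox on day 11, B2m at 0.04, H2-D1 at 0.05, Psmb8 at 0.10, Cd74 at -0.01 and H2-Eb1 at -0.04 for cKO against flox on day 4. Voom also put H2-K1 at 0.08, Psmb8 at -0.40 and H2-Ab1 at -0.04 for cKO against flox over all stages, H2-K1 at -0.01 for cKO day 11 against PBS, Tap2 at -0.38, Psmb5 at 0.10, Psmb7 at 0.66, H2-DMa at -0.19 and Cd274 at -1.90 for day 11 against PBS. Voom also put Tap1 at -0.70, Psmb9 at -0.09, Cd74 at -0.28 and H2-Eb1 at -0.06 for day 11 against day 4, Tap1 at 0.32, Psmb8 at -0.49 and H2-Ab1 at -0.14 for day 4 against PBS, H2-Ab1 at 0.02 for flox day 11 against PBS. Voom also put Psmb8 at -0.07 for flox day 4 against PBS, Tap1 at -0.19 for the day 11 interaction. With the proximal tubule sum as a covariate, values were Cd74 at -0.03 for cKO against flox on day 4, Tapbp at -0.04, Psme1 at -0.11, Psmb6 at 0.12, Psmb7 at 0.04 and Cd274 at -4.11 for day 11 against PBS, Tap1 at -0.18, Cd74 at -0.16, H2-Ab1 at -0.04 and H2-Eb1 at -0.08 for day 11 against day 4. Without the third library of cKO day 4 and the third library of cKO day 11, values were H2-Eb1 at 0.05 for cKO against flox on day 11, Tap1 at 0.00, Cd74 at 0.11 and H2-Ab1 at -0.06 for cKO against flox over all stages, B2m at 0.13 for cKO day 11 against PBS. Their omission also put Psme2 at -0.09, Psme1 at -0.03 and H2-DMa at -0.00 for day 11 against PBS, Tap1 at -0.16 for day 11 against day 4, H2-Ab1 at -0.17 for day 4 against PBS.

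No pairing by replicate number was seen: over 48 same-numbered pairs the correlation of deviations ran from -0.0511 to 0.03, with 0 above 0.1. The correlations were taken over all genes tested, so a factor shared by few genes could go unseen. With the replicate number as a block, 0 of the 10 genes were called in any of the 13 comparisons. Under the block, values were Tap1 at 0.11 for cKO against flox on day 11, Tap1 at 0.09 and Psmb8 at -0.10 for cKO against flox over all stages, Tap1 at 0.14 for cKO day 11 against PBS. The block also put Psme1 at -0.01 and H2-DMa at -0.31 for day 11 against PBS, H2-Eb1 at -0.03 for day 11 against day 4, Psmb8 at -0.43 and H2-Ab1 at -0.02 for day 4 against PBS.

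Leaving out 1 library at a time gave ranges that crossed 0 as follows. For flox day 4 against PBS the range was H2-Eb1 -0.12 to 0.55. For flox day 11 against PBS the ranges were Tap1 -1.62 to 0.35, Cd74 -0.17 to 0.93, H2-Aa -0.10 to 0.19 and H2-Ab1 -0.23 to 0.15. For cKO day 4 against PBS the range was Tap1 -0.26 to 1.14. For cKO day 11 against PBS the ranges were B2m -0.30 to 0.13, H2-K1 -0.54 to 0.58 and Tap1 -1.06 to 0.24. For day 4 against PBS the ranges were Psmb8 -0.18 to 0.35 and H2-Ab1 -0.17 to 0.32. For day 11 against day 4 the ranges were B2m -0.27 to 0.12, Tap1 -0.24 to 0.38, Psmb9 -0.05 to 1.49, Cd74 -0.26 to 0.19 and H2-Eb1 -0.10 to 0.23. For cKO against flox with PBS the ranges were B2m -0.01 to 0.25, H2-K1 -0.56 to 0.85, Tap1 -1.81 to 0.32, Psmb9 -1.07 to 0.43 and H2-Aa -0.29 to 0.02. For cKO against flox on day 4 the ranges were B2m -0.63 to 0.15, Psmb8 -0.75 to 0.36, Psmb9 -3.29 to 0.11 and Cd74 -0.22 to 0.40. For cKO against flox on day 11 the ranges were H2-K1 -1.35 to 0.05, Tap1 -0.97 to 0.04, Psmb9 -0.78 to 0.97, Cd74 -0.02 to 0.84 and H2-Eb1 -0.45 to 0.10. For cKO against flox over all stages the ranges were H2-K1 -0.34 to 0.25, Tap1 -0.31 to 0.39, Psmb8 -0.13 to 0.23, Cd74 -0.24 to 0.19 and H2-Ab1 -0.09 to 0.29. For cKO against flox over all stages the range was H2-Eb1 -0.19 to 0.01. For the day 4 interaction the ranges were B2m -0.73 to 0.05, H2-K1 -0.42 to 1.01, H2-D1 -0.03 to 0.55 and Psmb9 -3.14 to 0.27. For the day 11 interaction the ranges were H2-K1 -1.38 to 0.14, H2-D1 -0.34 to 0.15, Tap1 -0.83 to 1.30, Psmb9 -0.62 to 1.12 and H2-Eb1 -0.17 to 0.42. For day 11 against PBS the ranges were Tap2 -0.50 to 2.31, Psme2 -0.09 to 0.25, Psme1 -0.06 to 0.10, Psmb6 -0.42 to 0.02 and Psmb5 -0.37 to 0.05. For day 11 against PBS the ranges were Psmb7 -0.39 to 0.56, H2-DMa -0.07 to 0.83, Icosl -3.36 to 0.20 and Cd274 -4.14 to 3.44. Values of Tap1, Psmb8 and Psmb9 are limited by single libraries that held 1 or 2 of their reads. These were not only shallow libraries. The first cKO PBS library, with 1 read each for Tap1 and Psmb9, held 20487694 reads in all, and the cause was not tested.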
